A study of Mus musculus with 2 samples.

Results

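The 10 genes described here are Cdkn1a, which encodes the cyclin-dependent kinase inhibitor p21, and 9 genes of the p53 pathway: Trp53, Mdm2, Ccng1, Bax, Bbc3, Phlda3, Trp53inp1, Sesn1 and Zmat3. They were taken by symbol from the gene rows of both count matrices, where all 10 of 10 were found among 22587 symbols. The question was whether Cdkn1a was high with or without the other p53 targets in neural stem cells that had lost Opa1, which encodes the GTPase that fuses the inner mitochondrial membrane. YFP+ cells were sorted from the adult mouse hippocampus and their mRNA was counted by droplet single-cell RNA-seq, with 1 library per genotype and, per the study's methods, 3 mice pooled in each. Opa1 cKO mice carried Opa1-Flox, Nestin-CreERT2 and ROSA26YFP. The control transgenic (CT) mice carried Nestin-CreERT2 and ROSA26YFP without the floxed allele according to the methods, although the strain label reads the same for both libraries. Both groups received tamoxifen at 8 weeks of age and were collected at 12 weeks, so CT cells had also been exposed to Cre and tamoxifen. Because the Nestin promoter drives the recombinase, the reporter marks stem cells with their progeny and any other cell in which that promoter was active.

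The transcription factor p53, encoded by Trp53, is held at low levels by the ubiquitin ligase MDM2 and accumulates after DNA damage, nucleolar stress and other insults. It then binds response elements near its target genes, which stop the cell cycle through p21, promote apoptosis through BAX and PUMA (Bbc3), restrain AKT signalling through PHLDA3 and act against oxidative damage through sestrins. Cdkn1a can also be switched on without p53, and in the hippocampus p21 is known for holding stem cells back from division. The set was chosen by the CPM of Cdkn1a in Opa1 cKO over CT cells, known from earlier results of these same data, so that difference is given as a description. With 1 library per genotype there was no replicate check, no test was possible and no p-value is given. Every interval below is an exact 95% counting interval, it treats UMIs (unique molecular identifiers, 1 per captured mRNA) as independent, and it covers counting error only.

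The 300-base RefSeq promoter windows (GRCm38.p6, 250 bases before to 50 after a start site) of Cdkn1a and Phlda3 and the first one of Bbc3 are shown. These were the members that stood highest in Opa1 cKO over CT. In GENCODE on GRCm38, Cdkn1a spans chr17:29090976-29100727, Bbc3 chr7:16308393-16318205 and Phlda3 chr1:135766119-135769136, all on the plus strand, and the windows cover the promoter and first transcribed bases of annotated RefSeq starts. Capitals mark the p53 response element core, found by its name on both strands, and sequences run 5′ to 3′ on the gene's strand.
Cdkn1a, upstream start, chr17:29090729-29091028, plus strand: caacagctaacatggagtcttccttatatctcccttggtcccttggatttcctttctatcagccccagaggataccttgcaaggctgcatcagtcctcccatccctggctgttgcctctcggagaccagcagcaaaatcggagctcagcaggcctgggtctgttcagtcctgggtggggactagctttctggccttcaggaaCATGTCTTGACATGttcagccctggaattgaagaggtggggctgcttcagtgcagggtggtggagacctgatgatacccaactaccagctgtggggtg
Cdkn1a, downstream start, chr17:29093519-29093818, plus strand: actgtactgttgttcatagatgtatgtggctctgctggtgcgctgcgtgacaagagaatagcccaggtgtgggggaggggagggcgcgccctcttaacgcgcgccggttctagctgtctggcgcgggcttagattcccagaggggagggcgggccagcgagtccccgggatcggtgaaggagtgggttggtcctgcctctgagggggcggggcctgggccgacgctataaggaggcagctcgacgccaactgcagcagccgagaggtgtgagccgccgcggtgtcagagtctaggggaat
Bbc3, first start, chr7:16309333-16309632, plus strand: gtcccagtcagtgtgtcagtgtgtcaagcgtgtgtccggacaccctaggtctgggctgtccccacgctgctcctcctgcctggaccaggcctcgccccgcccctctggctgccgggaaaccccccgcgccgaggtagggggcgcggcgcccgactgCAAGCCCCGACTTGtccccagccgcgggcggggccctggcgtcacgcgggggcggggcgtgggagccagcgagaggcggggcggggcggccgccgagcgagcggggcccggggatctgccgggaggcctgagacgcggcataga
Phlda3, chr1:135765835-135766134, plus strand: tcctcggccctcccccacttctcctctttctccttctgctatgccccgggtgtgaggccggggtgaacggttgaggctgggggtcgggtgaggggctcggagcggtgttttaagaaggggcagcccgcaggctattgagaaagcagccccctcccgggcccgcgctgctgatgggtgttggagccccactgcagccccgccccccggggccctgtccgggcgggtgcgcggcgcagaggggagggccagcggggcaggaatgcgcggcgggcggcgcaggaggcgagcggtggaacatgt
The upstream Cdkn1a window held 1 core, CATGTCTTGACATG, beginning 48 bases before the start site, and the downstream window of the same gene held none. The first Bbc3 window held 1 core, CAAGCCCCGACTTG, beginning 94 bases before its start, and the Phlda3 window held none. Bbc3 windows 2 and 3, at starts further downstream and not printed, held none either. Of the 10 members, 8 had a window in the table, with 12 windows in all, and 3 of the 12 held the core, the last of them belonging to Trp53. The core occurred in 7.22% of 32851 RefSeq promoter windows of this length. A match describes the letters only, and a window without one says nothing about binding elsewhere in the gene.

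The CT matrix held 10799936 UMIs in 4634 barcodes and the Opa1 cKO matrix held 18662032 UMIs in 6475 barcodes. Filtering on genes, mitochondrial reads and at least 1 YFP UMI kept 1790 CT cells with a median of 2555 UMIs and 3764 Opa1 cKO cells with a median of 3008, and the libraries shared 9 barcodes among kept cells. Clusters were named from marker genes. The largest class, called NSC pool-like, comprised 1379 CT and 2577 Opa1 cKO cells and was led by genes such as Aldoc, Gja1 and Slc7a10, which parenchymal astrocytes also express. It was formed by cluster 0, with 1375 CT and 792 Opa1 cKO cells, and by cluster 1, with 4 CT and 1785 Opa1 cKO cells and Nupr1, Acsbg1 and Gdf15 as leading genes. A cluster almost wholly of 1 library may be that library rather than a cell state. Its median depth was 2493 UMIs per cell in CT and 2960 in Opa1 cKO. Many Opa1 cKO cells had few mitochondrially encoded (mt-) transcripts. Cells with under 1% of UMIs from the 13 mt- mRNAs are called mt-low and the others mt-normal. Of the Opa1 cKO NSC pool-like cells, 1578 were mt-low and 999 were mt-normal, with median depths of 2962 and 2957 UMIs, whereas 3 CT cells were mt-low. Opa1 itself stood at 18.5 CPM (counts per 1000000 UMIs, here from 70 UMIs) in CT and 8.14 CPM (69 UMIs) in Opa1 cKO NSC pool-like cells, a log2 ratio of -1.19 (interval -1.69 to -0.68). These 3′ tags need not lie in the floxed exons, so they do not check the deletion. Markers of cell types that could have been carried into this class did not move together: summed ependymal markers were 154 CPM in CT, against 138 CPM in Opa1 cKO (0 of 7 at zero), endothelial markers 48.4 and 34.9 CPM (0 of 8 at zero), microglial markers 66.7 and 124 CPM (0 of 6 at zero), and erythrocyte markers 309.8 and 9.20 CPM (0 of 5 at zero). Their part in the results was not tested.

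Cdkn1a was nearly undetected in CT NSC pool-like cells and plainly present in Opa1 cKO. In CT, 8 UMIs were counted in 1379 cells, 1 in each of 8 cells, which is 2.12 CPM (0.91 to 4.17). In Opa1 cKO, 692 UMIs gave 81.7 CPM (75.7 to 88.0). The log2 ratio was 5.27 (4.28 to 6.49), or 38.6-fold, and 9 of 11312 genes tested had a ratio at least as large, Cdkn1a included. Tested here means at least 20 UMIs over both groups. The CT denominator of 8 UMIs makes the fold imprecise: the interval runs over more than 2 log2 units. After thinning every cell to 1500 UMIs, 0.389% of CT cells (5 of 1285) and 10.3% of Opa1 cKO cells (244 of 2379) carried a Cdkn1a UMI, against 0.580% and 18.0% of all 1379 and 2577 cells without thinning. As no class surely lacks Cdkn1a, oligodendrocyte-like cells, the other class with the lowest level in both libraries, were set beside the NSC pool-like cells. The median depth of the oligodendrocyte-like cells was 3914 UMIs for Opa1 cKO and 3768 for CT. There, 0 of 74 CT cells carried a UMI, which allows a share of up to 4.05% by a limit of 3 counts (4.86% by the exact binomial interval), and the thinned Opa1 cKO share was 2.97% (0.617 to 8.44). With 74 CT cells, any share under 4.86% would lie inside that interval, so it cannot decide whether the CT share in NSC pool-like cells is background. The thinned Opa1 cKO share of 10.3% lay above the interval of oligodendrocyte-like cells of the same library, which held Cdkn1a themselves and are no blank. A sum over cells cannot tell more expressing cells from more RNA per cell.

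The regulators themselves differed less. Trp53 stood at 43.1 CPM (163 UMIs) in CT, 51.6 CPM (166 UMIs) in Opa1 cKO mt-normal and 79.5 CPM (418 UMIs) in mt-low cells, and over all Opa1 cKO cells the log2 ratio to CT was 0.68 (0.42 to 0.94). Mdm2, whose product degrades p53 and which is itself a p53 target, stood at 33.1, 29.2 and 43.4 CPM in the same order. Its ratio over all Opa1 cKO cells was 0.20 (-0.10 to 0.51), an interval that includes 0 and ends below 1.5-fold.

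**Figure D1:**
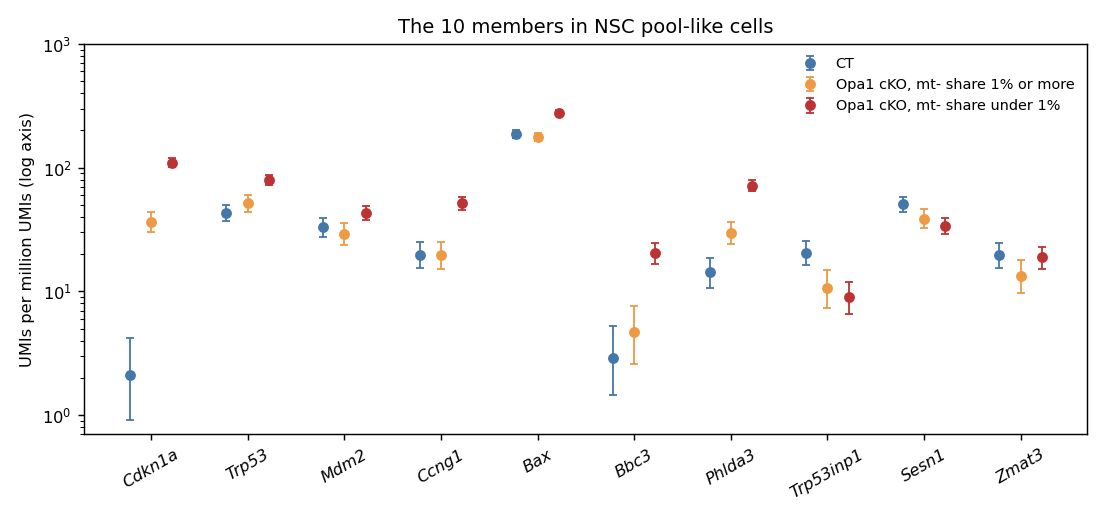
Level of each member in NSC pool-like cells, in CPM on a log axis, for CT (blue, 1379 cells) and for Opa1 cKO mt-normal (orange, 999 cells) and mt-low cells (red, 1578 cells). Points are library values and bars are exact 95% counting intervals. Cdkn1a climbs from 2.12 to 36.4 and 109 CPM, Bbc3 and Phlda3 stand highest in the mt-low cells, and Trp53inp1 is lower in both Opa1 cKO groups than in CT.

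Among the genes that carry p53's effects on survival, Bbc3 and Phlda3 stood out. Bbc3, encoding the BH3-only protein PUMA, was counted 11 times in CT (2.91 CPM), 15 times in mt-normal (4.66 CPM) and 107 times in mt-low Opa1 cKO cells (20.4 CPM), and its overall log2 ratio was 2.31 (1.42 to 3.35). Phlda3, a competitor of AKT for membrane lipids, stood at 14.3 CPM (54 UMIs) in CT, 29.8 CPM (96 UMIs) in mt-normal and 71.3 CPM (375 UMIs) in mt-low cells, with an overall ratio of 1.96 (1.55 to 2.39). The intervals of Phlda3 in the 3 groups did not overlap. Bax, the pore-forming effector of apoptosis, stood at 188 CPM in CT, 177 CPM in mt-normal and 278 CPM in mt-low cells, and its overall ratio of 0.35 (0.23 to 0.48) lay under 1.5-fold. Bax overlaps the predicted gene Gm45808 on the same strand, so reads of the pair could be shared. Ccng1, which encodes cyclin G1, a recruiter of phosphatase activity to MDM2, stood at 19.8, 19.6 and 51.6 CPM, with an overall ratio of 0.99 (0.63 to 1.37).

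The remaining members stood lower in Opa1 cKO or near the CT level. Trp53inp1, an autophagy-linked cofactor of p53, was counted 78 times in CT (20.6 CPM), 34 times in mt-normal (10.6 CPM) and 47 times in mt-low cells (8.94 CPM), and its overall ratio was -1.11 (-1.58 to -0.64). Sesn1, a stress-inducible inhibitor of mTORC1 signalling, stood at 50.5, 38.8 and 33.7 CPM, with a ratio of -0.50 (-0.77 to -0.23). For Zmat3, an RNA-binding regulator of splicing, the levels were 19.6, 13.4 and 18.8 CPM and the ratio was -0.22 (-0.64 to 0.20). Of all tested genes, 97.3% had a ratio at least as high as that of Trp53inp1 and 83.1% as that of Sesn1, which lay under 1.5-fold. The intervals of Mdm2 and Zmat3 over all Opa1 cKO cells included 0. Mt-low cells alone over CT gave 0.39 (0.07 to 0.72) for Mdm2 and -0.06 (-0.50 to 0.40) for Zmat3. That contrast gave -0.59 (-0.89 to -0.28) for Sesn1 and -1.21 (-1.76 to -0.67) for Trp53inp1.

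Counted over the 9 members other than Cdkn1a, 4 were at least 1.5-fold higher in Opa1 cKO (Trp53, Ccng1, Bbc3 and Phlda3) and 1 at least 1.5-fold lower (Trp53inp1), while 13.9% of all tested genes were that much higher and 13.2% that much lower. The median log2 ratio of the 9 was 0.35 against 0.03 over all tested genes. All 10 members passed the count filter, 8 of them with their CT count alone, and Cdkn1a and Bbc3 passed through Opa1 cKO. Of the 8 that passed on CT alone, 3 were at least 1.5-fold higher and 1 at least 1.5-fold lower. Their median was 0.28. The members were chosen with such values in view, so these shares carry no weight as evidence about the pathway.

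Opa1 cKO cells were then split by mt- share. In mt-normal cells Cdkn1a stood at 36.4 CPM (30.1 to 43.6), with 117 UMIs, a log2 ratio over CT of 4.10 (3.08 to 5.35). Of these 117 UMIs, 77 came from the 156 cells with 1% to 2% mt- UMIs, next to the line, and 7 from the 639 cells with 4% or more. Over the same contrast Phlda3 stood at 1.06 (0.57 to 1.57), and the intervals of Trp53 (0.26), Mdm2 (-0.18), Ccng1 (-0.02), Bax (-0.08), Bbc3 (0.68) and Zmat3 (-0.55) all included 0. Trp53inp1 at -0.97 (-1.59 to -0.37) and Sesn1 at -0.38 (-0.72 to -0.05) were below CT. Of the 9, 2 (Bbc3 and Phlda3) were at least 1.5-fold higher and 1 (Trp53inp1) at least 1.5-fold lower, while of all 10613 genes tested 4.9% were higher and 12.5% lower by that much. Bbc3 did not reach the count filter on CT alone, and of the 8 that did 1 was higher and 1 lower. The ratios of mt-normal cells over CT depended on where the mt- line was drawn. With mt-normal set at 2% or more, the Cdkn1a ratio over CT was 2.77. With mt-normal set at 0.5% or more, the ratios of Ccng1 (0.66, 0.26 to 1.08), Bbc3 (1.81, 0.86 to 2.90) and Bax (0.15, 0.01 to 0.29) had intervals above 0. On counts thinned to 1500 UMIs per cell the Sesn1 ratio was -0.01 (-0.49 to 0.47).

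Between the 2 Opa1 cKO groups, which come from the same library, more members moved. The groups also differed in markers. Summed NSC pool markers were 74868 CPM in mt-normal and 59269 CPM in mt-low cells (0 of 17 at zero). Ependymal markers were 197 and 103 CPM in the same order (0 of 7 at zero). Microglial markers were 112 and 131 CPM (0 and 2 of 6 at zero). The part of these markers in the results was not tested. Mt-low cells had 109 CPM of Cdkn1a (101 to 119), a ratio over mt-normal cells of 1.59 (1.30 to 1.89). Bbc3 at 2.13 (1.34 to 3.01), Ccng1 at 1.40 (1.00 to 1.82) and Phlda3 at 1.26 (0.93 to 1.60) were higher as well. Bax (0.65), Trp53 (0.62) and Mdm2 (0.57) were higher by about 1.5-fold with intervals above 0, while those of Zmat3 (0.50), Sesn1 (-0.21) and Trp53inp1 (-0.24) included 0. Of the 9, 5 passed 1.5-fold higher and none 1.5-fold lower, against 15.4% and 6.32% of 10789 genes, whose median was 0.18. Trp53 and Bax were just past the limit of 0.585, and in other settings their ratios were as low as 0.46 and 0.47. Bbc3 reached the count filter only through mt-low cells, and of the 8 that reached it on mt-normal cells alone 4 were higher. Fewer mt- UMIs raise the CPM of every other gene in mt-low cells, and the count of 5 does not allow for this. With CPM computed on the UMIs outside the 13 mt- mRNAs, the Cdkn1a ratio was 1.52. It moved more with the line between the groups, to 2.98 at 2% and 0.69 at 0.5%, and was 0.98 when cells were clustered without the listed genes. At 0.5% the ratios of Bbc3 (1.02, 0.48 to 1.57) and Ccng1 (0.71, 0.39 to 1.03) were smaller too, and Bbc3 stood at 1.30 with the other clustering.

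**Figure D2:**
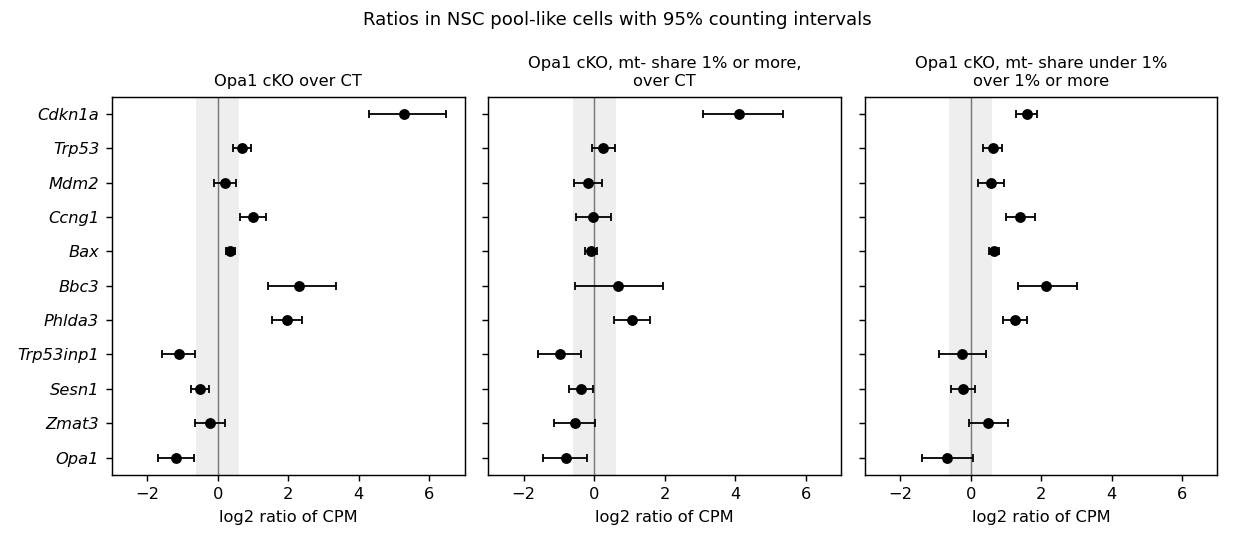
Log2 ratios of CPM in NSC pool-like cells for the 10 members and Opa1, in Opa1 cKO over CT (left), Opa1 cKO mt-normal over CT (middle) and mt-low over mt-normal within Opa1 cKO (right). Bars are exact 95% counting intervals and the grey band marks ratios under 1.5-fold, and in the middle panel, with the line at 1%, Cdkn1a (4.10) and Phlda3 (1.06) are the members whose intervals lie above 0.

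In finer steps of mt- share, Cdkn1a was high also in cells just above the mt-low line. Opa1 cKO cells with at least 4% mt- UMIs (639 cells) had 3.32 CPM (1.33 to 6.84), where 1057 CT cells of the same range held 6 UMIs. Between 2% and 4% (204 cells) the level was 49.9 CPM (34.3 to 70.1), where CT cells had 2.67 CPM, and between 1% and 2% (156 cells) it was 172 CPM (136 to 215), the highest of the 6 steps. Below 1% it was 116, 96.7 and 128 CPM in the steps down to 0.5%, to 0.25% and to 0%. Ccng1 followed another course: it stood at 17.6, 25.7 and 20.1 CPM in the 3 steps above 1% and at 51.7, 50.7 and 53.4 CPM in those below. Phlda3 stood at 23.7, 28.7, 60.2, 50.7, 81.6 and 85.7 CPM from the highest to the lowest mt- share, and Bbc3 at 1.90, 9.07, 11.2, 19.7, 20.1 and 22.2 CPM.

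**Figure D3:**
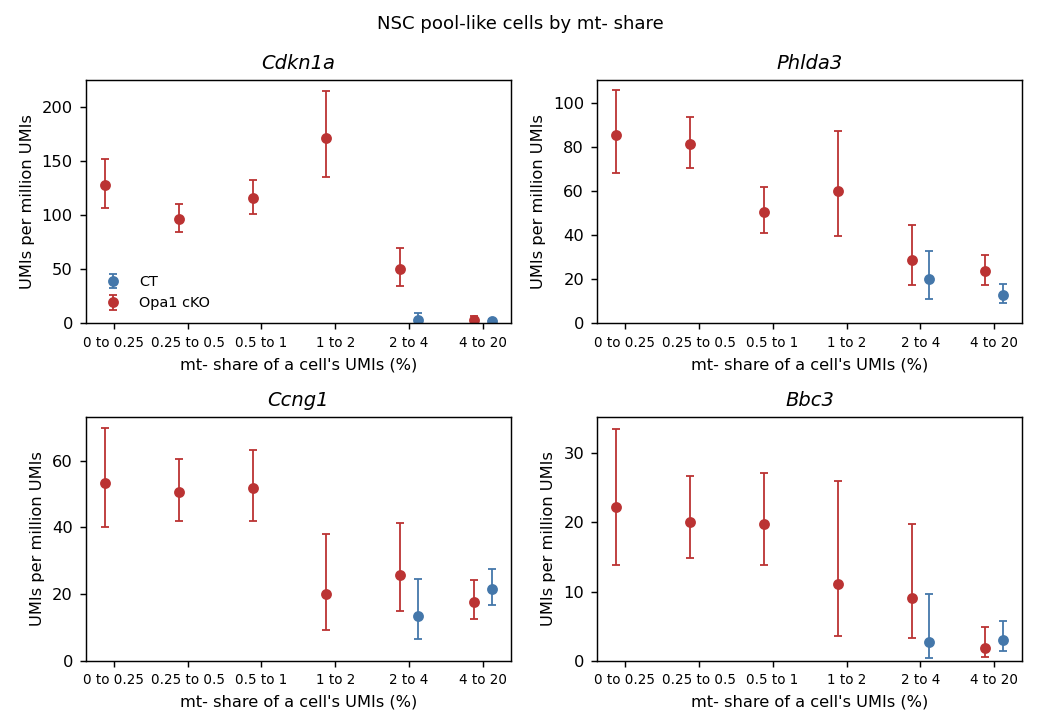
Cdkn1a, Phlda3, Ccng1 and Bbc3 in NSC pool-like cells by the share of a cell's UMIs that are mt- mRNAs, in percent, as CPM with exact 95% counting intervals. Opa1 cKO is red and CT blue, with CT drawn only where it had cells enough. Cdkn1a peaks at 172 CPM between 1% and 2%, a step in which Ccng1 stood at 20.1 CPM on 9 UMIs.

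By cluster, Opa1 cKO cells in cluster 0, the cluster that held nearly all CT cells, had 6.22 CPM of Cdkn1a (3.55 to 10.1, 16 UMIs in 792 cells), while those in cluster 1 had 115 CPM (106 to 124). In cluster 0, Opa1 cKO cells had 1.94 CPM of Bbc3 and 17.1 CPM of Ccng1 against 2.91 and 19.9 CPM in CT cells. In cluster 1, Opa1 cKO cells had 19.8 CPM of Bbc3, 49.1 CPM of Ccng1 and 69.8 CPM of Phlda3, so these 3 stood high in the same cluster as Cdkn1a. In cluster 0, Phlda3 was 22.9 CPM (17.5 to 29.6) in Opa1 cKO and 14.3 CPM (10.7 to 18.7) in CT, and Trp53inp1 was 8.16 CPM (5.05 to 12.5) and 20.7 CPM (16.3 to 25.8), so the lower Trp53inp1 was seen also in Opa1 cKO cells that clustered with CT cells. The clusters were built with all genes, the members included, and are no independent split.

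Counts per cell stayed small. In the NSC pool-like class, no CT cell had more than 1 Cdkn1a UMI, whereas 2.40% of mt-normal and 7.35% of mt-low Opa1 cKO cells had 2 or more, with maxima of 7 and 8. Among thinned mt-low cells, the 197 with a Cdkn1a UMI were compared with the 1253 without one. Phlda3 was higher in the former, at 112 against 60.7 CPM, a log2 ratio of 0.88 (0.28 to 1.45), and Sesn1 was lower, at 10.2 against 38.8 CPM, on 3 UMIs (-1.94, -4.25 to -0.33). The intervals of Trp53 (0.53), Mdm2 (0.38), Ccng1 (0.07), Bax (0.31), Bbc3 (1.00), Trp53inp1 (-0.92) and Zmat3 (0.39) included 0. Summed over the list of ATF4 targets introduced next, the ratio between these cells was 0.03 (-0.03 to 0.08). In mt-normal cells the comparison was of 47 cells with and 882 without Cdkn1a. There Bbc3 had 4 against 3 UMIs (4.65, 2.08 to 7.42), Phlda3 2 against 31 (0.28, -2.83 to 2.25), and the ATF4 list stood at 1.02 (0.89 to 1.14). Most Cdkn1a UMIs of mt-normal cells came from those with 1% to 2% mt- UMIs, so this comparison is not separate from mt- share. The intervals of the other members included 0 on 2 to 20 UMIs in the cells with Cdkn1a, so a difference in them was not detectable at this depth.

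The 24 genes fixed as a stress list, ATF4 targets together with Atf4 itself, offered a second scale within the Opa1 cKO cells. Among them are Asns and Phgdh of amino acid supply, tRNA synthetase genes such as Aars, transcription factor genes such as Ddit3, and the secreted Gdf15. Gdf15 is known as a p53 target too. Cells were ranked by the share of UMIs from the list and cut into 3 equal parts. In mt-normal cells Cdkn1a stood at 3.79, 2.76 and 102 CPM from the lowest to the highest part, a top-over-bottom log2 ratio of 4.75 (3.36 to 6.65). In that contrast Ccng1 (0.97, 0.06 to 1.94) and Phlda3 (1.07, 0.31 to 1.87) also had intervals above 0. The median mt- share of these parts was 5.68%, 5.28% and 2.22%, so the 2 scales are not separate. In mt-low cells Cdkn1a was level across the 3 parts at 106, 103 and 121 CPM (0.19, -0.11 to 0.49), while Ccng1 (0.59, 0.15 to 1.04) and Phlda3 (0.57, 0.21 to 0.94) were higher in the top part. Leaving Gdf15 out of the list gave 4.75 in mt-normal and 0.09 in mt-low cells for Cdkn1a. How far the other genes of the list answer to p53 was not tested. In CT cells the 3 parts held 5, 2 and 1 Cdkn1a UMIs.

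Other p53 targets were listed beyond the members. Of 34 listed in the matrices, 25 were tested in Opa1 cKO over CT NSC pool-like cells, 9 were at least 1.5-fold higher and 2 at least 1.5-fold lower, against 13.9% and 13.2% of all genes, with a median log2 ratio of 0.32 against 0.03 over all genes. Of the 22 that reached the count filter on CT alone, 6 were higher, and the median was 0.07. At a 2-fold limit 3 of the 25 were higher (Aen, Plk3 and Tigar), against 3.95% of all genes. Plk3 and Tigar passed the count filter only through Opa1 cKO, so of the 3 only Aen reached it on CT alone. At the higher end, Aen, a p53-induced nuclease, stood at 94.6 against 28.8 CPM (1.71, 1.42 to 2.02). Plk3, a stress-activated kinase, had 19 against 1 UMIs (3.08, 0.43 to 8.46), and Tigar, a regulator of glycolysis, had 35 against 6 (1.38, 0.12 to 2.92). At the lower end were Tgfa (-2.07), Apaf1, the core of the apoptosome (-1.16), and Btg2, an antiproliferative cofactor (-0.42). Apaf1 and Bbc3, which act in the same apoptotic route, thus stood on opposite sides.

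Genes listed as shared between p53 and ATF4 or CHOP were kept as a list of their own. How far any of them, Trib3 and Chac1 included, answers to p53 was not tested. Of 8, 7 were tested and 5 were at least 1.5-fold higher, against 13.9% of all tested genes, with a median of 1.56. Trib3 and Chac1 passed the filter only through Opa1 cKO, and of the 5 that reached it on CT alone 3 were higher, with a median of 1.22. Trib3, a pseudokinase of the stress response, had 719 UMIs in Opa1 cKO but 0 in CT. The ratio was 107-fold with 3 UMIs set as the CT floor, and the exact interval of the log2 ratio begins at 6.44. Chac1, a glutathione-degrading enzyme, stood at 506 against 2 UMIs (6.82, 4.96 to 9.87), Sesn2 at 36.6 against 10.0 CPM (1.86, 1.37 to 2.39) and Ppp1r15a at 66.0 against 28.3 CPM (1.22, 0.92 to 1.53). The paralogues Sesn1 and Sesn2 therefore lay on opposite sides of CT. Ddit4 (0.13) and Gadd45b (-0.32) lay under 1.5-fold, and Pmaip1, encoding NOXA, had 1 UMI in all.

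All 24 genes of the ATF4 list, Atf4 itself included, were at least 1.5-fold higher, against 13.9% of all tested genes, with a median of 1.86. The list was chosen with earlier results of these data known, so this count carries no weight as evidence. The ratios ran from Phgdh at 0.61 (0.55 to 0.66), Shmt2 at 0.87 and Aars at 1.14 up to Stc2 at 4.18 (2.28 to 7.25, 81 against 2 UMIs), Asns at 8.13 (5.65 to 13.4, 628 against 1 UMIs) and Gdf15 at 8.57 (6.08 to 13.9, 849 against 1 UMIs). Of the 24, 19 reached the filter on CT alone, and these had a median of 1.45, while Stc2, Asns and Gdf15 were among those that passed only through Opa1 cKO. In mt-normal cells over CT, 12 of the 21 tested were at least 1.5-fold higher, against 4.9% of all tested genes. Of the 19 that reached the filter on CT alone there, 10 were.

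Of 25 genes listed as p53 regulators, which take in the p53 family members Trp63 and Trp73, 22 were tested, with a median of -0.08. Of these, 2 were at least 1.5-fold higher and 4 lower, against 13.9% and 13.2% of all tested genes. The kinase gene Atm (0.70), the acetyltransferase gene Kat5 (0.59) and the ribosomal protein gene Rpl5 (0.56), whose product can bind MDM2, were highest. Trp63 (-1.33), the deacetylase gene Sirt1 (-1.05) and Crebbp (-0.83) were lowest. Of 16 other regulators of Cdkn1a, 1 was higher, Hes1 (0.66), and 3 lower, Klf4 (-1.60), Foxo1 (-1.03) and Cebpa (-0.84), against the same shares of all genes. Myc (0.42) and Nfe2l2 (0.35) lay under 1.5-fold.

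Among the other CDK inhibitors, 3 of 7 were tested and none passed 1.5-fold in either direction: Cdkn2c (0.48, 0.21 to 0.75), Cdkn2d (0.23, -0.03 to 0.50) and Cdkn1b, encoding p27 (-0.49, -0.69 to -0.29). Cdkn2a, encoding the senescence marker p16, had 1 UMI in Opa1 cKO and 0 in CT, which is too few for a statement. Of the CDKs and cyclins that p21 binds, 7 of 11 were tested. Ccnd2 (0.68) was higher and Cdk6 (-1.16) lower, against 13.9% and 13.2% of all tested genes. Pcna (0.47), Cdk4 (0.42), Cdk2 (-0.40) and Ccnd1 (-0.43) lay under 1.5-fold. Of 25 cell cycle genes known to be lowered through p21, only 8 could be tested in these largely non-dividing cells. Mcm2 (31 against 2 UMIs, 2.79, 0.82 to 5.90), Cks2 (1.64) and Mcm6 (0.84, interval including 0) were higher, against 13.9% of all tested genes. These 3 passed the count filter only through Opa1 cKO. Of the 4 that reached it on CT alone none was 1.5-fold higher or lower, and the median was -0.07. Tyms (0.30), E2f1 (-0.44) and Rrm2 (-0.51) lay under 1.5-fold with intervals that included 0. Of the other BCL2 family, 7 of 13 were tested and 2 were higher, against 13.9% of all tested genes. They were Hrk (22 against 1 UMIs, 3.29, 0.67 to 8.66), which passed the count filter only through Opa1 cKO, and Bcl2l2 (0.61). Bak1 (0.29), Bcl2l1 (0.03), Mcl1 (-0.27) and Bcl2 (-0.33) lay under 1.5-fold.

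**Figure D4:**
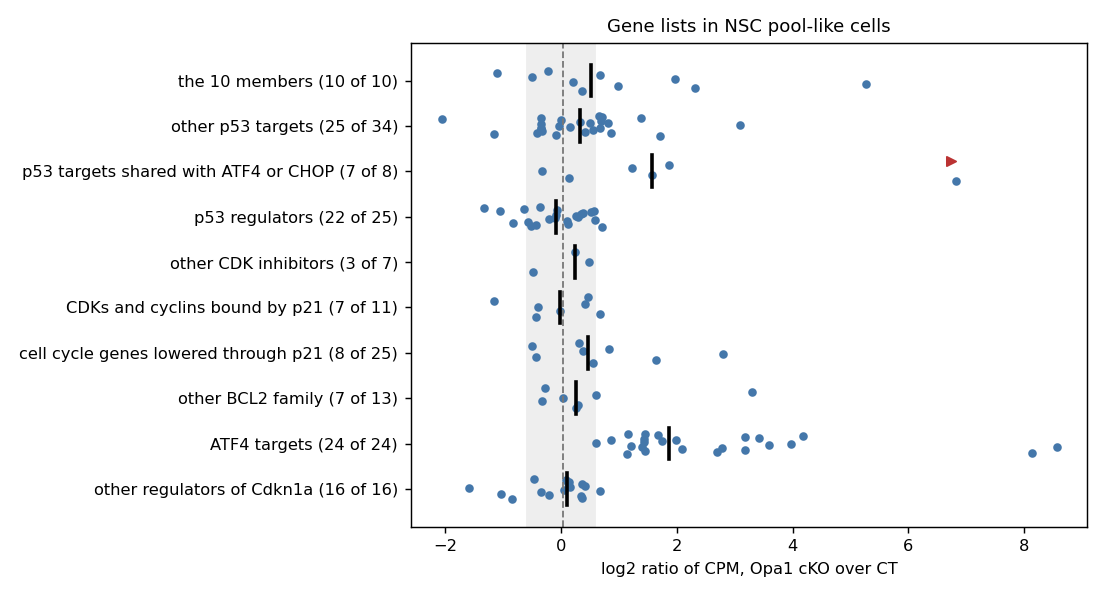
Log2 ratio of CPM, Opa1 cKO over CT, in NSC pool-like cells for each tested gene of 10 lists, with the number tested of those in the matrices in brackets. Points are genes, the red triangle is Trib3 at its lower bound, black bars are list medians, the dashed line is the median of all tested genes and the grey band marks under 1.5-fold. The medians drawn are 1.86 for the ATF4 targets, 1.56 for the genes listed as shared between p53 and ATF4 or CHOP and 0.32 for the other p53 targets. Each includes genes that passed the count filter only through Opa1 cKO.

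Outside the NSC pool, Cdkn1a was detected in CT cells of most classes. In cluster 7, led by globin genes and then Cldn5 and left unnamed for that reason, it stood at 395 CPM (318 to 484) in CT, against 466 CPM (401 to 540) in Opa1 cKO. Summed erythrocyte markers in this cluster were 42.9 CPM in CT (2 of 5 at zero), against 30684 CPM in Opa1 cKO (0 of 5). Endothelial markers were 16381 and 15952 CPM (0 of 8 at zero) and mural markers 16871 and 14255 CPM (0 of 8 at zero), so it held markers of both vascular types in both libraries. Their part in the result was not tested. In ependymal-like cells it stood at 174 CPM (104 to 271, 39 cells) and 238 CPM (208 to 271, 244 cells), and in progenitor and neuron-like cells at 71.1 CPM (48.6 to 100.4) and 90.7 CPM (67.9 to 119). The intervals of the log2 ratio included 0 in these 3 groups, at 0.24 (-0.13 to 0.62), 0.45 (-0.22 to 1.21) and 0.35 (-0.31 to 1.03), so differences of up to about 2-fold remain possible. In mural-like cells it stood at 36.7 CPM (6 UMIs) in CT, against 152 CPM (51 UMIs) in Opa1 cKO, a ratio of 2.05 (0.83 to 3.56). Oligodendrocyte-like cells held 20 UMIs in Opa1 cKO but 0 in CT. The ratio was 4.41-fold with 3 UMIs set as the CT floor, and the exact interval begins at 3.26-fold. Of the 20 UMIs 10 came from 1 cell, and 7 of 101 cells had any. Whether the difference between libraries was larger in NSC pool-like cells than in another class was not tested.

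Activated NSC-like cells were almost all from Opa1 cKO, 417 against 10. This class depended on the clustering. No cluster took its name when cells were clustered without the listed genes, and with log-normalization it held 325 Opa1 cKO and 46 CT cells. As clustered here, its Opa1 cKO cells had 156 CPM of Cdkn1a (135 to 178) with 205 UMIs in 109 cells. The 10 CT cells held 16 UMIs in 2 cells, 9 of them in 1 cell, which allows no comparison. Here the mt- share made no visible difference to Cdkn1a: mt-low cells had 154 CPM and mt-normal cells 156 CPM (log2 ratio -0.03, -0.50 to 0.43). The same held for ependymal-like cells, at 234 and 246 CPM (-0.07, -0.48 to 0.35). Phlda3, in contrast, was higher in mt-low cells of both classes, at 107 against 35.7 CPM in activated NSC-like cells (1.58, 0.88 to 2.29) and 129 against 55.7 CPM in ependymal-like cells (1.21, 0.44 to 2.05).

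Among the other members, Phlda3 was also higher in Opa1 cKO ependymal-like cells, at 105 against 18.3 CPM on 100 and 2 UMIs (2.53, 0.64 to 5.59), and in progenitor and neuron-like cells, on 12 and 1 UMIs (3.21, 0.45 to 8.63). Its level in oligodendrocyte-like cells was 281 CPM in CT, against 305 CPM in Opa1 cKO, the highest of the Opa1 cKO classes, in a class where Cdkn1a had 0 UMIs in CT. In ependymal-like cells Zmat3 was lower, on 15 and 6 UMIs (-1.80, -3.24 to -0.14). The intervals of the members other than Phlda3 and Zmat3 included 0 there. In mural-like cells the Cdkn1a ratio was 2.05. There Trp53 (0.35), Mdm2 (0.21), Ccng1 (-0.15), Bax (0.27) and Sesn1 (0.05) lay under 1.5-fold, with intervals that included 0. In that class Bbc3 (12 and 1 UMIs), Phlda3 (15 and 3), Trp53inp1 and Zmat3 fell short of the count filter. Bbc3 in progenitor and neuron-like cells stood at 28.9 CPM in CT, against 77.0 CPM in Opa1 cKO (1.41, 0.50 to 2.43). In those cells, of 7 tested members other than Cdkn1a, 1 was at least 1.5-fold higher and 1 lower, against 15.2% and 19.9% of 7070 genes, and Phlda3 fell short of the count filter. The higher one, Bbc3 (45 against 13 UMIs), passed the filter through Opa1 cKO. Of the 3 that reached it on CT alone, none was that much higher or lower. Trp53 stood at 222 CPM in CT, against 260 CPM in Opa1 cKO there. The cell cycle genes lowered through p21 were countable in this class. Of 24 tested, 15 were at least 1.5-fold lower in Opa1 cKO and none higher, against 19.9% and 15.2% of all tested genes, with a median of -0.69. Of the 21 that reached the filter on CT alone, 13 were lower, with a median of -0.67. Cdkn1a in the same cells differed by 0.35 with an interval that included 0, and a link to these genes was not tested. Mki67 and Top2a are in this list and also among the progenitor and neuron markers summed next. Summed progenitor and neuron markers in this class were 20254 CPM in CT, against 15918 CPM in Opa1 cKO (0 of 13 at zero), and NSC pool markers 5046 and 8259 CPM (0 of 17 at zero), and their part in the result was not tested.

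**Figure D5:**
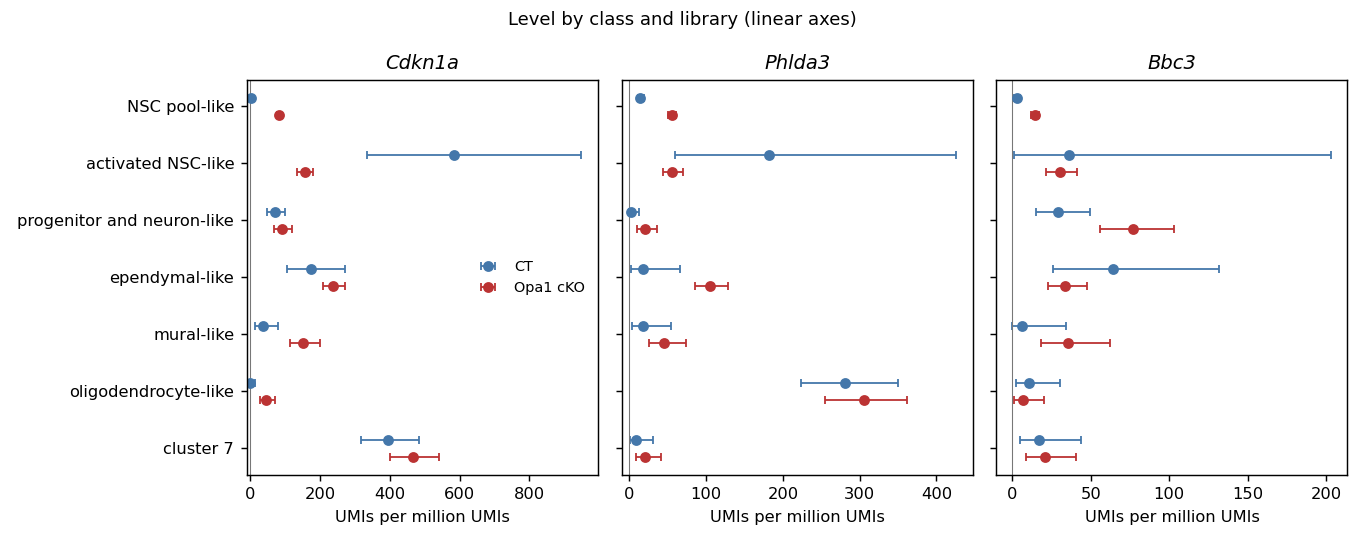
Cdkn1a, Phlda3 and Bbc3 in each class, in CPM on linear axes that differ between panels, for CT (blue) and Opa1 cKO (red), with exact 95% counting intervals. The CT point of activated NSC-like cells rests on 10 cells. Cdkn1a is high in both libraries in cluster 7 (395 and 466 CPM) and ependymal-like cells (174 and 238 CPM), and low in CT against Opa1 cKO in NSC pool-like cells (2.12 and 81.7 CPM).

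Across the 18 combinations of library, class and mt- group with at least 20 cells, the 5 genes whose log2 level was most like that of Cdkn1a, out of those counted 300 times or more in the NSC pool-like class, were Psme2 (Pearson r = 0.83), Isca1 (0.83), Bri3 (0.82), Rfk (0.80) and Smn1 (0.79), among 5485 genes ranked. The groups share libraries and depth, and the values describe likeness over these 18 groups only. Among the members, Ccng1 reached 0.44, Sesn1 0.42, Trp53 0.21, Bax 0.12, Mdm2 -0.03 and Phlda3 -0.24, and Bbc3, Zmat3 and Trp53inp1 were counted too rarely to be ranked.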

How the data were processed

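The samples were 2 10x Genomics 3′ libraries of YFP+ hippocampal cells, 1 per genotype, each pooled from 3 mice. The authors deposited raw UMI counts per gene and barcode. The submitters' processing notes name Cell Ranger 2.1.1, while the matrix header names 3.1.0. Coordinates are from GENCODE on GRCm38 and promoters from RefSeq.

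Kept cells had over 600 and below 7500 genes detected, under 20% mt- UMIs and at least 1 YFP UMI. They were normalised with SCTransform (sctransform 0.4.2) and clustered in Seurat 5.3.0 (8 dimensions, resolution 0.2). A cluster took the name of the cell type with most markers among its 50 leading genes, with at least 3 markers over 2-fold, a form of the rule settled after the clusters were seen. Because 4 of the 10 leading genes of cluster 7 were globins, it was left unnamed. Scrublet in scanpy 1.11.5 marked 2 and 3 cells (0.112% and 0.0797%), too few to serve as a doublet check.

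UMIs were summed per library, class and mt- group. CPM carry exact Poisson intervals, ratios an exact binomial interval on how their 2 counts divide, and shares Clopper-Pearson intervals. Genes needed 20 UMIs over both groups, and 1.5-fold was the limit for counting a gene as higher or lower. CT cells serve in several of the comparisons, which are therefore not independent. Calculations ran in Python 3.11.15 with scipy 1.17.1 and were tested on simulated data. The members and lists were chosen with earlier results of these data known. Named list genes are the 3 highest and the 3 lowest by log2 ratio (Opa1 cKO over CT, NSC pool-like) of those that reached 20 UMIs, and Cdkn2a and Pmaip1 were singled out after their values were seen. Of 10 lists, 8 were found whole.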

Additional observations from a re-analysis of the deposited data

Results flagged for a closer look

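Barcodes that passed the other filters without a YFP UMI were not used in the comparisons, and Cdkn1a was high among those of Opa1 cKO as well. In NSC pool-like barcodes of this kind, 1491 from Opa1 cKO and 1823 from CT, Cdkn1a stood at 57.1 CPM (201 UMIs) and 3.95 CPM (16 UMIs), a log2 ratio of 3.85 (3.12 to 4.69), and 36.8% and 0.219% of them were mt-low. Bbc3 (2.20, 0.97 to 3.64), Phlda3 (1.34, 0.87 to 1.82) and Ccng1 (0.80, 0.37 to 1.23) were higher there too, and Trp53inp1 (-0.71, -1.29 to -0.15) and Sesn1 (-0.52, -0.84 to -0.22) were lower. Trp53 (0.32, 0.02 to 0.62) and Bax (0.24, 0.09 to 0.39) had intervals above 0 but lay under 1.5-fold. The intervals of Mdm2 (0.04) and Zmat3 (0.35) included 0. The cells had been sorted for YFP, so a missing UMI need not mean a cell without the reporter.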

How the results depend on the processing

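No paired analysis was possible because each genotype had 1 library, and leaving out a replicate was not possible for the same reason. Over every alternative run, the Cdkn1a ratio of Opa1 cKO over CT stayed between 4.71 and 5.48. The Cdkn1a ratio of mt-low over mt-normal cells, 1.59 as reported, was 0.98 with cells clustered without the listed genes, 2.98 with the mt- line at 2% and 0.69 with it at 0.5%, and the ratio of mt-normal cells over CT fell to 2.77 with the line at 2%. The share of Opa1 cKO NSC pool-like cells with a Cdkn1a UMI, 18.0%, was 16.2% without the YFP filter, 15.001% with more than 200 genes as the only filter and 10.3% thinned to 1500 UMIs. Of the other p53 targets, 3 rather than 9 were higher at a 2-fold limit, and of these Plk3 and Tigar passed the count filter only through Opa1 cKO. Of 340 recomputed ratios of the 10 members, 329 stayed within the reported counting interval and 11 left it, 4 of them of Cdkn1a. The sign changed in 14, each time for a ratio whose reported interval included 0, and in 3 of these the new interval excluded 0. These were Ccng1 and Bax in mt-normal cells over CT with the line at 0.5% (0.66 and 0.15), and Ccng1 with more than 200 genes as the only filter (0.36, 0.02 to 0.69). Leaving out the 5% of cells with most UMIs, an alternative chosen after seeing the data because the doublet caller marked so few cells, gave 5.12 for Cdkn1a in Opa1 cKO over CT. The 8 UMIs of Cdkn1a in CT limit every ratio over CT, and 17 of 25 cell cycle genes had too few UMIs in NSC pool-like cells to compare.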
